A study of Homo sapiens with 27 samples.

Results

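Ribosome footprints of contact-inhibited quiescent IMR90 fibroblasts were compared with those of cycling IMR90 fibroblasts. IMR90 is an established line of normal human fetal lung fibroblasts. The comparison took the Ribo-seq libraries titled contact-inhibited quiescent (3) and those titled cycling without thapsigargin (3), which made 6 of the 27 libraries in the study. Forward-strand counts of 19322 protein-coding genes were used, of which 11778 passed a filter on low counts. All 6 came from cells labelled wild type, and both states carried no drug and no radiation. Per the labels' protocols all cells grew in high-glucose DMEM with fetal bovine serum and non-essential amino acids, and cycling cells were harvested below confluency. How long the quiescent cells had been confluent is not given. The other libraries were RNA-seq of the same states (2 cycling and 3 quiescent), and both library types of cells made senescent by radiation or etoposide or treated with thapsigargin. The study's title asks how senescence alters translation and the integrated stress response. In that design quiescence is growth arrest without senescence.

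Quiescence is a reversible exit from the cell cycle. In fibroblasts it is set off by crowding, by loss of serum or by loss of adhesion, and CDK inhibitors together with the RB family then hold cell-cycle genes in a repressed state. Ribosome profiling sequences the stretches of mRNA that ribosomes shield from an RNase. The footprint count of a gene thus reflects both the amount of its mRNA and the ribosomes on it. Footprints are here given as CPM, counts per 1000000 protein-coding footprints after TMM scaling, which corrects for libraries of differing composition. CPM values compare 1 gene between libraries and are not corrected for gene length. Scaling sets the average gene to no change, so a change of all genes alike, such as less translation per cell, could not be seen.

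Gene counts came to 9874835 to 14439646 in the cycling libraries and 17508672 to 19996104 in the quiescent ones, and 96.4% to 99.1% of them fell on protein-coding genes. All 12 fibroblast markers listed, VIM, COL1A1 and PDGFRA among them, had more than 10 counts per 1000000 in every library. Of 10 epithelial markers, KRT5, KRT14, NKX2-1 and SFTPC had no count in any of the 6 libraries, and of 8 immune markers CD3E and CD68 had none. Summed over the list, epithelial markers reached at most 8.02 counts per 1000000, immune markers at most 0.507 and endothelial markers at most 32.9, most of the last from TEK.

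The quiescent libraries were less alike than the cycling ones, and quiescent replicate 1 stood apart. Between pairs of cycling libraries the chi-square of the counts per degree of freedom, which sampling noise alone would set near 1, was 9.945 to 12, against 36.3, 66.1 and 134 between pairs of quiescent libraries, the last 2 of them the pairs with replicate 1. On the first principal component of log2 CPM, which held 72.1% of the variance, the cycling libraries lay at -34.5 to -27.5, quiescent replicates 2 and 3 at 19.2 and 11.9, and quiescent replicate 1 at 58.95. The labels do not say whether replicates are separate cultures, so the spread between them may be technical in part.

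Of 11778 protein-coding genes tested, 2555 (21.7%) were called changed by edgeR's quasi-likelihood test at an adjusted p under 0.05. More were lower in quiescent cells (1720, or 14.6%) than higher (835, or 7.09%), and among changes of at least 2-fold the falls were 1104 and the rises 140. Without quiescent replicate 1 the count was 2131 genes, and without cycling replicate 3 it was 1551, the lowest of the 6 fits that left out a library. With upper-quartile scaling the calls were 1259 higher and 1609 lower, and with DESeq2 1417 higher and 1929 lower. A fit without the thapsigargin libraries called 1601 higher and 2031 lower. The excess of falls was thus smaller in each of these settings.

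Among genes with a mean of at least 10 CPM and no overlap between the groups, the largest rises were in ADH1B (ENSG00000196616), a class I alcohol dehydrogenase, and FMO2 (ENSG00000094963), a flavin-containing monooxygenase abundant in lung. ADH1B had 0.931, 2.81 and 0.959 CPM in the cycling libraries and 32.2, 24.7 and 22.3 CPM in the quiescent ones. Its log2 fold change was 3.98 ± 0.49 (SE; edgeR adjusted p = 3.89e-04). FMO2 had 2.69, 2.59 and 3.196 CPM in cycling and 27.4, 21.3 and 22.1 CPM in quiescent libraries, a change of 3.07 ± 0.21 on the log2 scale (edgeR adjusted p = 2.59e-05). For both genes every quiescent library was above every cycling one, and quiescent replicate 1, which stood apart in the whole profile, was the highest of the 6.

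Further large rises fell on genes of varied roles. RGS5, a regulator of G protein signalling known from pericytes, rose by 2.24 on the log2 scale, from 10.04, 9.86 and 6.71 to 45.5, 31.7 and 49.4 CPM. The cytokine genes IL32 (1.77) and IL16 (1.58), the kinesin gene KIF26B (1.70), the sodium channel relative SCN7A (1.80) and CCDC68, CCDC102B and CRACD (2.15, 2.01 and 1.78) also rose. MYH11, the smooth muscle myosin heavy chain, had a log2 fold change of 1.998, with 11.8, 17.5 and 43.5 CPM in the quiescent libraries against 6.73, 5.83 and 5.65, and was not called with the replicate block (edgeR adjusted p = 0.051). That fit compares libraries of the same replicate number and uses the 6 quiescent and cycling libraries in place of 14, so a call lost in it cannot be put down to the block alone.

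Among the largest falls were receptors and secreted factors. GRPR, the receptor for gastrin-releasing peptide, had 15.1, 8.06 and 10.97 CPM in cycling and 1.18, 1.73 and 1.43 CPM in quiescent libraries (-2.96 ± 0.38; edgeR adjusted p = 3.72e-04). OXTR, the oxytocin receptor, went from 32.9, 16.6 and 23.97 to 3.03, 4.33 and 4.45 CPM (-2.63 ± 0.33). CXCL12, a chemokine made by stromal cells, had 62.2, 83.6 and 65.5 CPM in the cycling libraries and 6.06, 12.5 and 16.4 CPM in the quiescent ones (-2.60 ± 0.32). In all 3 genes quiescent replicate 1 was the lowest library, and no quiescent library reached a cycling one. GGH, a lysosomal hydrolase of folate polyglutamates, fell by 2.67 on the log2 scale. Among the others of the 14 largest falls, GPRC5A, EMP2, NDC1, CLN6, REEP4, NCEH1 and KCNN2 had log2 fold changes from -2.56 to -2.18. DIO2, a membrane-bound deiodinase that activates thyroid hormone, gave -2.28, the carboxypeptidase gene CPA4 -2.24 and the serpin gene SERPINB7 -2.38.

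**Figure D1:**
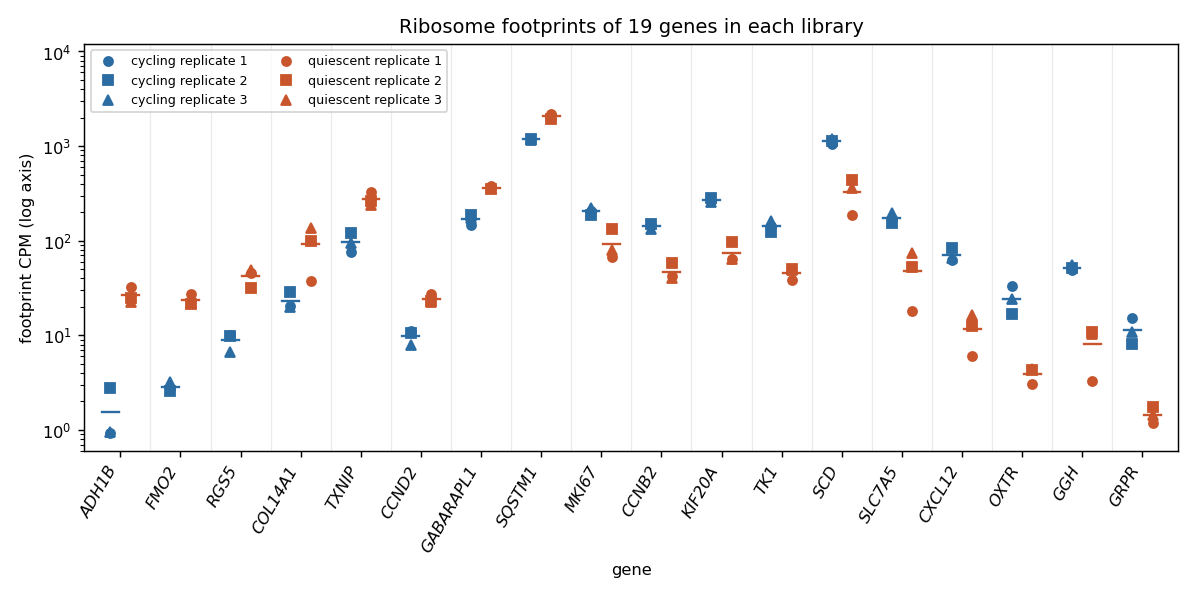
Footprint CPM (log axis) of 18 genes in each of the 6 libraries; symbols mark the replicates and short lines the group means. The cycling (blue) and quiescent (orange) libraries do not overlap in any of these genes, and quiescent replicate 1 (circle) is the lowest library in SCD, SLC7A5, CXCL12, OXTR, GGH and GRPR.

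Genes of mitosis fell almost as a whole. Of 60 tested, 59 were called lower and none higher, where 14.6% of all genes were called lower, and 37 fell at least 2-fold. The median log2 fold change of their footprints was -1.08, beside 0.02 for all genes tested. All 60 had 3 quiescent libraries below 3 cycling ones, a pattern that 23.4% of all genes tested showed. Together they took 0.689, 0.666 and 0.648% of protein-coding footprints in the cycling libraries and 0.332, 0.431 and 0.282% in the quiescent ones. Mitotic footprints thus remained in every quiescent library, the most in replicate 2. Without quiescent replicate 1, 55 of the 60 were called lower. In bulk libraries, fewer cycling cells and less mitotic RNA per cell cannot be told apart.

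KIF20A, a kinesin of the central spindle needed for cytokinesis, had 266, 284 and 255 CPM in cycling and 63.7, 96.7 and 63.8 CPM in quiescent libraries (-1.84 ± 0.16; edgeR adjusted p = 2.68e-05). CCNB2, cyclin B2, which drives mitotic entry with CDK1, went from 145, 149.7 and 134 to 42.3, 57.97 and 40.5 CPM (-1.61 ± 0.20), and SPC24, a subunit of the kinetochore's NDC80 complex, from 43.9, 39.8 and 40.2 to 12.5, 15.5 and 13.3 CPM (-1.58 ± 0.18). MKI67, the source of the Ki-67 antigen used to mark proliferating cells, had 206, 185 and 224 CPM in cycling libraries and 66.95, 133 and 80.3 CPM in quiescent ones (-1.14 ± 0.22; edgeR adjusted p = 0.00286). In each of these 4 genes quiescent replicate 2 was the highest of the quiescent libraries and still below every cycling library.

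Many promoters of the mitosis list share a pair of short sequences. The cell cycle homology region (CHR), read here as TTTGAA or TTCGAA, is where the DREAM complex and B-MYB bind in late cell-cycle genes, and a CCAAT box, bound by NF-Y, often lies upstream of it. In the 250 bases before the start site, on either strand, CHR letters were present in 28 of 51 mitosis promoters (54.9%) against 9.91% of the promoters of all genes tested, and CCAAT in 35 of 51 (68.6%) against 35.6%. Genes called lower held CHR letters in 14.1% of promoters and genes called higher in 9%. The promoters below belong to the 3 mitosis genes with the largest falls whose last 180 bases before the start hold both. They come from RefSeq on GRCh38.p14 and read 5′ to 3′ in the direction of the gene, and capitals mark CHR and CCAAT on either strand. CCNB2 lies at chr15:59104966-59105145 (+ strand), PRC1, which bundles the microtubules of the central spindle, at chr15:90994536-90994715 (- strand), and CDC20, an activator of the anaphase-promoting complex, at chr1:43358801-43358980 (+ strand).
CCNB2: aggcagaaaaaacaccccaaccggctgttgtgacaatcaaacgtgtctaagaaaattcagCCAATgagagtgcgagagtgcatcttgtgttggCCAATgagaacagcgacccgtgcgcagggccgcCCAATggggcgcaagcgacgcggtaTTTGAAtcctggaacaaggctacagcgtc
PRC1: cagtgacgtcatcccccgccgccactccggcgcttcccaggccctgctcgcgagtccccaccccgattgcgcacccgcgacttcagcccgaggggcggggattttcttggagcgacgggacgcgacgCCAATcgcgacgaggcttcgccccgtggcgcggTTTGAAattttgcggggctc
CDC20: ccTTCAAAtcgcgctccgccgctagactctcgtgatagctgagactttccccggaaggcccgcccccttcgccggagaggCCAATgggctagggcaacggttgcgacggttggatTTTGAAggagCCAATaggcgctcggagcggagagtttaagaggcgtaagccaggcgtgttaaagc
PRC1 and CDC20 footprints changed by -1.503 and -1.31 on the log2 scale (edgeR adjusted p = 0.00254 and 3.89e-04). In CCNB2 the CHR letters lie downstream of 3 CCAAT boxes, and the CDC20 stretch holds CHR letters on both strands. Mitosis genes with CHR letters had a median footprint log2 fold change of -1.02 (n = 28) and those without of -1.13 (n = 23).

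DNA replication genes fell less far. Of 44 tested, 27 were called lower, where 14.6% of all genes were, and none higher. The median log2 fold change was -0.67, and 42 had a negative value. MCM7, a subunit of the replicative helicase, had 368, 305 and 339 CPM in cycling and 132, 191 and 146 CPM in quiescent libraries (-1.11 ± 0.14; edgeR adjusted p = 3.65e-04). GINS2, of the GINS complex that travels with that helicase, gave -1.21 ± 0.25, and UHRF1, which carries DNA methylation through replication, -1.01 ± 0.18. The count was 12 without cycling replicate 1, 15 without cycling replicate 3 and 22 without quiescent replicate 1. E2F sites, read as TTCCCGC or TTGGCGC on either strand, were present in 16 of 37 promoters of this list (43.2%) against 12.8% of all genes tested.

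The enzymes that supply DNA precursors were called lower in 7 of 23 cases, where 14.6% of all genes were, and none higher. TK1, thymidine kinase 1, had 142, 123 and 161 CPM in cycling and 38.7, 50.2 and 48.6 CPM in quiescent libraries (-1.63 ± 0.13; edgeR adjusted p = 2.59e-05). DUT, which removes dUTP, gave -1.08 ± 0.12 and DTYMK, thymidylate kinase, went from 155, 138 and 132 to 80.01, 80.5 and 52.2 CPM. Among chromatin proteins, H2AZ1, a variant histone, went from 1115, 944 and 923 to 486, 568 and 451 CPM (-0.99 ± 0.10), and the high mobility group genes HMGB2 and HMGB3 gave -0.88 ± 0.16 and -0.71 ± 0.14. Of the 17 genes in that list 4 were called lower and 1, HMGA2, higher (0.55, edgeR adjusted p = 0.0455), where 14.6% and 7.09% of all genes were. HMGA2 was not called with the replicate block (edgeR adjusted p = 0.0877), without quiescent replicate 1, 2 or 3 (0.0647, 0.087 and 0.0624), or without cycling replicate 1 or 2 (0.0711 and 0.17).

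Lamins and inner nuclear membrane proteins were called lower in 8 of 13 genes and higher in 1, where 14.6% and 7.09% of all genes were. LMNB1, lamin B1 of the nuclear lamina, had 201, 179 and 192 CPM in cycling and 79.8, 112 and 84.6 CPM in quiescent libraries (-1.05 ± 0.14; edgeR adjusted p = 3.90e-04). SUN2, which links lamins to the cytoskeleton, went from 127, 112 and 131 to 12.9, 34.2 and 38.9 CPM (-2.11 ± 0.30), LBR, the lamin B receptor, gave -1.92 ± 0.26 and LEMD2 -1.58 ± 0.22. SYNE1, a nesprin of the outer nuclear membrane, was the gene that rose (0.85 ± 0.12). Quiescent replicate 1 was the lowest library for SUN2, LBR and LEMD2.

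G1 regulators did not move one way. Of 24 G1 cyclins, CDKs and members of the RB and E2F pathway, 3 were called higher and 4 lower, where 7.09% and 14.6% of all genes were. CCND2, cyclin D2, rose from 11.2, 10.6 and 7.99 to 27.4, 22.8 and 22.8 CPM (1.29 ± 0.13; edgeR adjusted p = 1.11e-04). CCND1, cyclin D1, had 551, 329.8 and 469 CPM in cycling and 616, 609.6 and 795 CPM in quiescent libraries (0.58 ± 0.16; adjusted p = 0.0194), and it was not called with the replicate block (edgeR adjusted p = 0.053), without cycling replicate 2 (0.0641) or without quiescent replicate 3 (0.0657). CDK2, whose activity carries cells through G1 to S, gave -0.69 ± 0.11 and its small binding partner CKS2 -0.91 ± 0.13, both called lower. Without cycling replicate 2 the count of higher calls was 1, and without cycling replicate 3 that of lower calls was 2.

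The CDK inhibitors, 7 tested, had 3 called higher, where 7.09% of all genes were, and none lower, with a median log2 fold change of 0.42. CDKN2B, p15, an inhibitor of CDK4 and CDK6, had 10.6, 6.695 and 12.3 CPM in cycling and 18.2, 21.2 and 33.7 CPM in quiescent libraries (1.32 ± 0.27; edgeR adjusted p = 0.00391), and was called in each fit that left out 1 library and with the block. CDKN2A, the locus of p16 and p14ARF, went from 41.8, 19.9 and 21.5 to 50.2, 43.9 and 74.96 CPM (1.03 ± 0.28; edgeR adjusted p = 0.0174), and CDKN1A, p21, from 740.0, 607 and 647 to 895, 738 and 1034 CPM (0.42 ± 0.12; adjusted p = 0.0235). In CDKN1A the groups overlapped, since quiescent replicate 2 lay just below cycling replicate 1. With the replicate block the edgeR adjusted p was 0.0718 for CDKN2A and 0.0574 for CDKN1A, and CDKN2B was then the 1 inhibitor called, as it was without cycling replicate 2, cycling replicate 3 or quiescent replicate 3. CDKN1B, p27, often named as the inhibitor of contact-inhibited cells, had 63.95, 60.3 and 55.4 CPM in cycling and 71.4, 65.2 and 73.5 CPM in quiescent libraries and was not called (0.23 ± 0.10; edgeR adjusted p = 0.117). CDKN1C, p57, gave 0.76 ± 0.27 (adjusted p = 0.0556), and was called without quiescent replicate 2 (edgeR adjusted p = 0.0369).

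**Figure D2:**
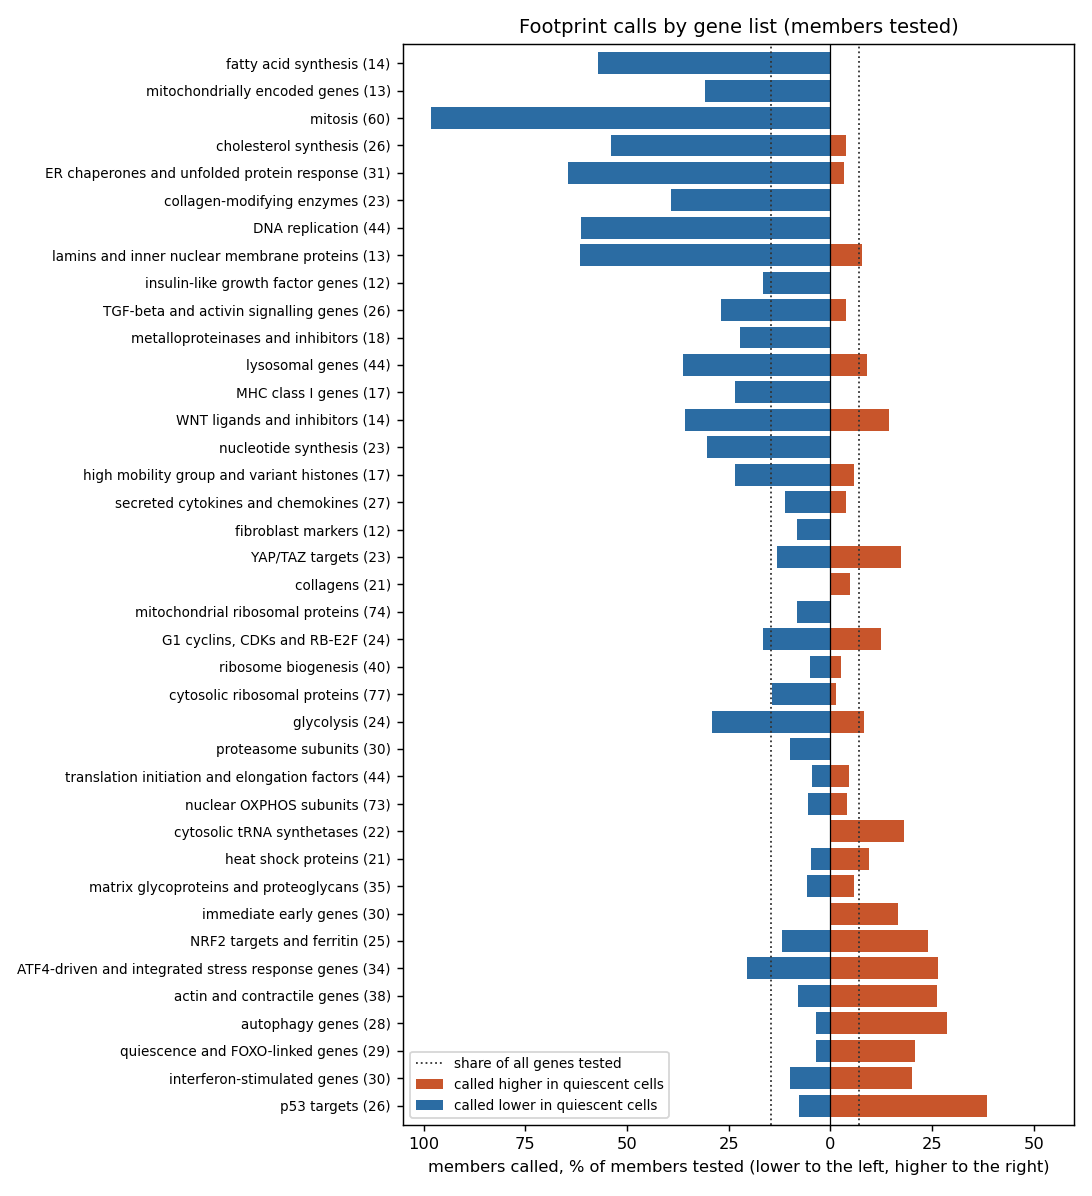
Members of each gene list called lower (left, blue) or higher (right, orange) in quiescent cells, as a percentage of the members tested, for the lists with at least 12 members tested, in the order of their median change. Dotted lines mark the shares of all genes tested, 14.6% lower and 7.09% higher; mitosis reaches 59 of 60 lower, and p53 targets 10 of 26 higher.

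Among lists with at least 12 members tested, the largest shares of higher calls were those of p53 targets, autophagy, the integrated stress response and the actin cytoskeleton. Of 26 p53 targets, 10 were called higher and 2 lower, where 7.09% of all genes were called higher. TP53INP1, which promotes autophagy and cell death, had 17.5, 26.9 and 26.96 CPM in cycling and 50.6, 45.3 and 55.7 CPM in quiescent libraries (1.08 ± 0.19; edgeR adjusted p = 0.00157). ZMAT3, an RNA-binding zinc finger protein, gave 0.88 ± 0.17, and SESN2, a sestrin that restrains mTORC1, 0.94 ± 0.23, a call lost without cycling replicate 2 (edgeR adjusted p = 0.0501). The 2 that fell, FAS (-1.07 ± 0.18) and TNFRSF10B (-1.15 ± 0.25), are the death receptors of the list. Leaving out 1 library gave 8 to 11 higher calls.

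Of 29 genes linked to quiescence and the FOXO factors, 6 were called higher and 1 lower, where 7.09% and 14.6% of all genes were. TXNIP, an arrestin-like protein that limits glucose uptake and binds thioredoxin, had 75.6, 121 and 94.8 CPM in cycling and 328, 260.4 and 240.1 CPM in quiescent libraries (1.504 ± 0.29; edgeR adjusted p = 0.00284). ZFP36L1, which speeds the decay of AU-rich mRNAs, gave 0.99 ± 0.20 and IRS2, an adaptor of the insulin receptor, 0.81 ± 0.20. GAS6, a secreted ligand named for its induction by growth arrest, went the other way, from 261, 246 and 308 to 59.2, 147 and 159 CPM (-1.16 ± 0.27; edgeR adjusted p = 0.00797). Its receptor AXL, from the list of YAP and TAZ targets, fell from 345, 356 and 437 to 48.2, 126 and 143 CPM (-1.84 ± 0.29). Both GAS6 and AXL were lowest in quiescent replicate 1.

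YAP and TAZ, which contact inhibition is known to exclude from the nucleus, have CCN1 and CCN2 as the classic targets. CCN1 had 490.0, 418 and 535 CPM in the cycling libraries and 81.6, 263 and 426 CPM in the quiescent ones, and CCN2 683, 658 and 715 and 139.6, 405 and 676 CPM. Quiescent replicate 1 was the lowest library in both, and the groups overlapped. Neither was called (-0.91 ± 0.41, edgeR adjusted p = 0.141, and -0.75 ± 0.38, adjusted p = 0.187), but without quiescent replicate 3 both were (edgeR adjusted p = 0.0149 and 0.0127). The whole list of 23 had 4 calls higher and 3 lower, where 7.09% and 14.6% of all genes were. AMOTL1 (0.57 ± 0.09), an angiomotin that binds YAP, and GADD45A (0.59 ± 0.12) were among the higher calls. Lower calls of the list were 8 without quiescent replicate 3, and its higher calls 2 without cycling replicate 2.

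Autophagy genes were called higher in 8 of 28 cases and lower in 1, where 7.09% and 14.6% of all genes were. SQSTM1, the cargo receptor p62, had 1188, 1192 and 1173 CPM in cycling and 2173, 1919 and 2148 CPM in quiescent libraries (0.81 ± 0.08; edgeR adjusted p = 1.17e-04). GABARAPL1, which coats autophagosome membranes, went from 148, 187 and 174 to 379.8, 348 and 357 CPM (1.09 ± 0.11). ULK1, the kinase that starts autophagy, gave 0.71 ± 0.20, and was not called without cycling replicate 2, cycling replicate 3 or quiescent replicate 3 (edgeR adjusted p = 0.0946, 0.0521 and 0.0865). The gene that fell was ATG9A (-1.81 ± 0.24). The count of higher calls was 5 without cycling replicate 1, 6 without quiescent replicate 1 and 4 with the replicate block.

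Immediate early genes, which growth factors induce within minutes, were called higher in 5 of 30 cases and lower in none, where 7.09% and 14.6% of all genes were. EGR2 rose from 1.03, 1.08 and 0.852 to 7.81, 8.02 and 12.1 CPM (3.20 ± 0.48; edgeR adjusted p = 7.64e-04), DUSP6, a phosphatase of ERK, from 50.5, 39.02 and 44.2 to 80.8, 77.3 and 90.1 CPM (0.89 ± 0.14), and ATF3 gave 0.83 ± 0.18. Interferon-stimulated genes were called higher in 6 of 30 cases and lower in 3, a smaller share of lower calls than among all genes. STAT2, which carries the interferon signal to the nucleus, had 214, 256 and 212 CPM in cycling and 395, 375 and 372 CPM in quiescent libraries (0.75 ± 0.10), IFIT2, which binds foreign RNA, gave 0.97 ± 0.23, and IFI6, a small membrane protein, fell (-1.51 ± 0.35). Lower calls of the interferon list were 1 each without cycling replicate 2, cycling replicate 3, quiescent replicate 1 or quiescent replicate 2. Both lists had higher shares of footprints in every quiescent library than in any cycling one. For immediate early genes the margin was narrow, with 0.1886% in quiescent replicate 2 and 0.1879% in cycling replicate 1.

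The integrated stress response raises ATF4 and its targets while it lowers translation initiation. ATF4 footprints overlapped between the states, at 179, 174 and 205 CPM in cycling and 196, 195 and 248 CPM in quiescent libraries (0.20 ± 0.12; edgeR adjusted p = 0.286). Of 34 ATF4-driven and other stress response genes, 9 were called higher and 7 lower, where 7.09% and 14.6% of all genes were. DDIT3, the transcription factor CHOP, had 10.7, 11.2 and 15.7 CPM in cycling and 27.3, 22.8 and 22.3 CPM in quiescent libraries (0.96 ± 0.21; edgeR adjusted p = 0.00641), and NUPR1, a small stress-induced nuclear protein, went from 76.2, 71.1 and 67.4 to 144, 119 and 131 CPM (0.88 ± 0.15). The 7 that fell are all subunits of amino acid transporters. SLC7A5, the light chain of a leucine carrier, had 171, 155 and 194 CPM in cycling and 18.2, 52.5 and 74.3 CPM in quiescent libraries (-1.84 ± 0.34; edgeR adjusted p = 0.00217), and SLC38A2, a carrier of neutral amino acids, 2848, 2598 and 2195 and 594, 1293 and 1102 CPM (-1.35 ± 0.23). Higher calls numbered 4 without cycling replicate 2 and 5 without cycling replicate 3. Lower calls numbered 3 without cycling replicate 3 and 4 without cycling replicate 1 or quiescent replicate 2, and 3 with the replicate block.

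Of 22 cytosolic tRNA synthetases, 4 were called higher and none lower, among them AARS1, for alanine (0.49 ± 0.09; edgeR adjusted p = 0.00226), and EPRS1, for glutamate and proline (0.37 ± 0.09). Among 25 NRF2 targets and ferritin genes, 6 were called higher and 3 lower, where 7.09% and 14.6% of all genes were. HMOX1, heme oxygenase 1, had 50.7, 54.4 and 52.96 CPM in cycling and 101, 77.5 and 111 CPM in quiescent libraries (0.87 ± 0.16), and TKT, transketolase, fell (-0.48 ± 0.09). Higher NRF2 calls were 3 without cycling replicate 1 or quiescent replicate 1 and 2 without cycling replicate 3, and lower calls were 1 without cycling replicate 2 or cycling replicate 3.

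Actin and contractile genes were called higher in 10 of 38 cases and lower in 3, where 7.09% and 14.6% of all genes were. MYH9, non-muscle myosin IIA, had 2572, 2173 and 2286 CPM in cycling and 2986, 3659 and 4544 CPM in quiescent libraries (0.67 ± 0.13; edgeR adjusted p = 0.00285). TLN1, talin, which couples integrins to actin, went from 1020.5, 950.0 and 925 to 1272, 1499.8 and 1668 CPM (0.62 ± 0.09). ACTA2, smooth muscle actin, had 2093, 1923 and 2115 CPM in cycling and 2482, 3536 and 5042 CPM in quiescent libraries (0.85 ± 0.23), a call lost without cycling replicate 2 or quiescent replicate 3 (edgeR adjusted p = 0.058 and 0.0594) and with the replicate block (0.0567). The 3 lower calls were TPM3, TUBA1B and TUBA1C, of which none was called without cycling replicate 1. The 10 higher calls became 14 without quiescent replicate 1, and 6 without cycling replicate 2 or with the replicate block.

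Several gene families whose proteins are made on ribosomes docked at the endoplasmic reticulum (ER) had many members called lower, but collagens, matrix glycoproteins and cadherins, which are made there too, had few or none. Membrane, secreted and lysosomal proteins enter the ER while they are being made, whereas cytosolic, nuclear and most mitochondrial proteins are made on free ribosomes. Gene families of both kinds were picked by their symbols after the values had been seen, so their counts are a description with no test. Whether the site of synthesis bears on the changes of any gene was not tested. Of 422 genes tested in 7 ER-made families, 224 (53.1%) were called lower and 1 higher, where 14.6% and 7.09% of all genes were, and the median log2 fold change was -0.95. Of 644 genes in 6 cytosol-made families, 8 (1.24%) were called lower and 42 higher, with a median of 0.19.

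Solute carriers belong to both kinds. Those other than SLC25 sit for the most part in membranes of the secretory route, and 114 of 170 tested (67.1%) were called lower and 1 higher, with a median of -1.13. SLC25 carriers, which are made in the cytosol and then imported into mitochondria, had none of 38 called, and a median of 0.09. TMEM-named proteins were called lower in 84 of 153 cases (-0.95), tetraspanins in 8 of 15 (-0.91), the GALNT enzymes that start O-glycans in 7 of 14 (-1.03) and integrins in 5 of 14 (-0.49). Of the ABC transporters of subfamilies A, C and G, 3 of 16 were called lower (-0.67), a count of 1 with the replicate block or without any 1 cycling library or quiescent replicate 2. Cadherins and protocadherins did not share this pattern, with 3 of 40 called lower (-0.08). Without quiescent replicate 1 their median was 0.22, with 8 called higher and 1 lower, whereas 0 were lower without cycling replicate 2 or 3 and 10 without quiescent replicate 3. Leaving out quiescent replicate 1 also moved the median of the integrins to -0.26 and that of the ABC transporters to -0.37. Among cytosol-made families, ZNF-named zinc finger genes had 29 of 433 called higher and 2 lower (0.24), a share of higher calls close to the 7.09% of all genes. Their higher calls were 8, 14 and 10 without cycling replicates 1, 2 and 3, 11 and 16 without quiescent replicates 1 and 2, and 14 with the block. The RAB GTPases had 7 of 50 called higher and none lower (0.21).

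**Figure D3:**
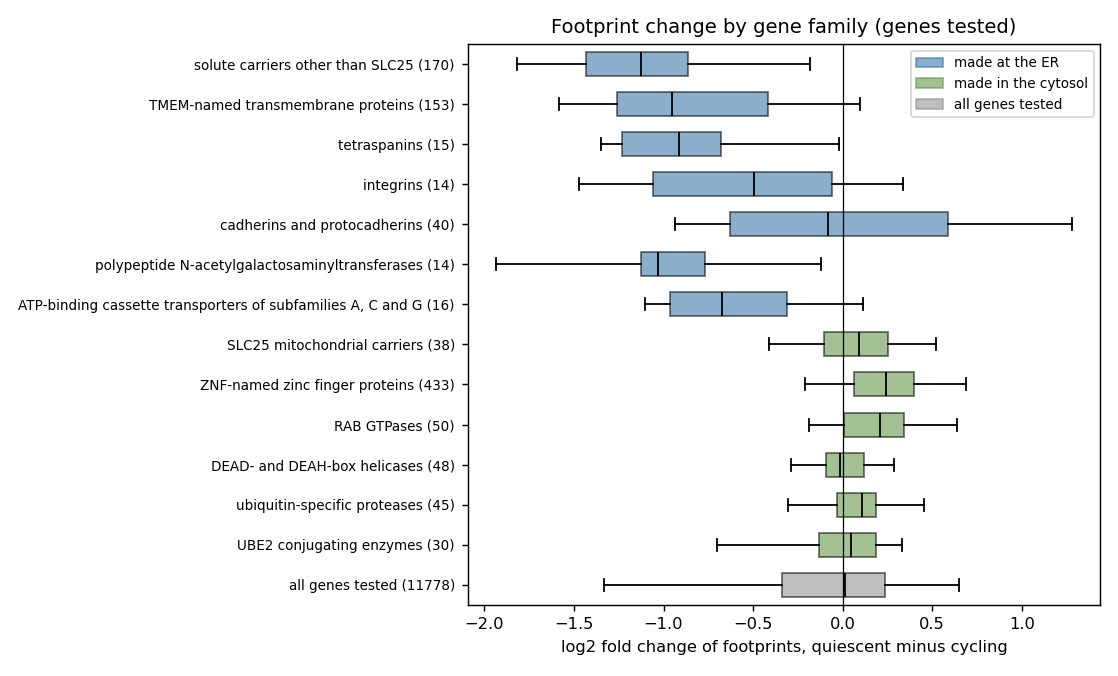
Footprint log2 fold change (quiescent minus cycling) of the genes in each family; boxes span the quartiles with the median, whiskers the 5th to 95th percentile, and numbers in brackets the genes tested. The ER-made families (blue) have medians from -1.13 (solute carriers) to -0.08 (cadherins), and the cytosol-made families (green) from -0.01 to 0.24.

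Quiescent replicate 1 showed this fall most, and the other quiescent libraries showed it too. The ER-made families took 1.92, 2.03 and 2.07% of protein-coding footprints in the cycling libraries and 0.675, 1.198 and 1.31% in quiescent replicates 1, 2 and 3. Relative to the cycling mean the quiescent shares were 33.6%, 59.6% and 65.1%. The cytosol-made families took 2.43, 2.43 and 2.299% in cycling and 3.03, 2.704 and 2.45% in quiescent libraries. Without quiescent replicate 1, 192 of the 422 ER-made genes were called lower and 10 higher, with a median of -0.66. Higher calls of the cytosol-made families then numbered 21. Without cycling replicate 3 the lower calls of the ER-made families were 140, those of the SLC genes 68 and those of the TMEM genes 55, and the higher calls of the cytosol-made families were 15, 24, 20 and 27 without cycling replicates 1, 2, 3 and quiescent replicate 2, and 26 with the replicate block. Lower calls of the cytosol-made families ranged from 3 to 6 over the fits without 1 library.

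RNA-seq, harvested in parallel per the series' design text, moved the same way. The median RNA log2 fold change was -0.57 for the ER-made families, with 172 genes called lower and 3 higher, and 0.16 for the cytosol-made ones. Quiescent RNA-seq replicate 1 had the lowest share of reads for ER-made families, 1.14% against 1.51% and 1.65% in the other quiescent and 2.11% and 2.15% in the cycling RNA-seq libraries. What set quiescent replicate 1 apart was not tested.

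**Figure D4:**
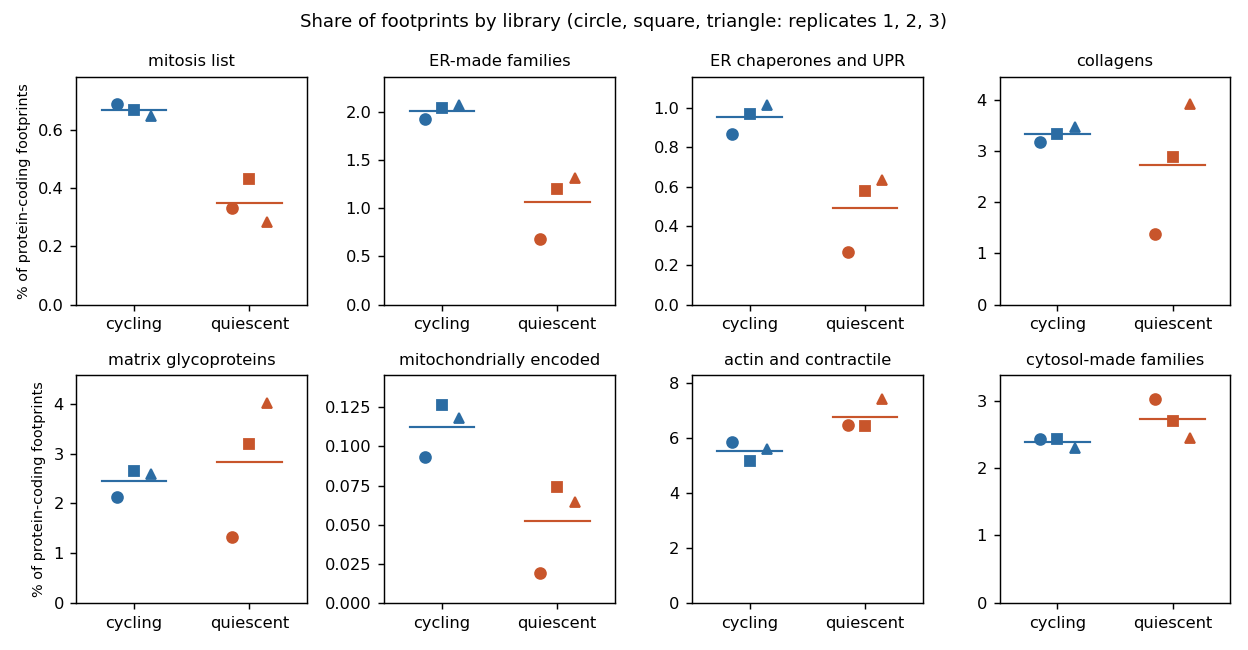
Share of protein-coding footprints (%) taken by 8 gene groups in each library, with replicates as symbols and group means as lines. Quiescent replicate 1 (circle) is the lowest library for ER-made families, ER chaperones, collagens, matrix glycoproteins and mitochondrially encoded genes, while the mitosis share is lowest in quiescent replicate 3.

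Of 31 genes for ER chaperones and the unfolded protein response, 20 were called lower and 1 higher, where 14.6% and 7.09% of all genes were. Their median was -0.90. They took 0.8696, 0.971 and 1.01% of footprints in cycling and 0.265, 0.576 and 0.635% in quiescent libraries. SEC61A1, the channel through which chains enter the ER, had 802, 793 and 877 CPM in cycling and 133, 331 and 408 CPM in quiescent libraries (-1.504 ± 0.27; edgeR adjusted p = 0.00217). DERL2, of ER-associated degradation, gave -1.63 ± 0.23, and ERO1A, the oxidase that renews disulfide exchange, -1.63 ± 0.27. The exception, SEC61B (0.44 ± 0.13), is a small subunit of the same channel. Its call was lost without cycling replicate 1, cycling replicate 2 or quiescent replicate 3 (edgeR adjusted p = 0.132, 0.0998 and 0.101). Lower calls were 22 without quiescent replicate 1 and 12 without cycling replicate 3.

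The ER stress element, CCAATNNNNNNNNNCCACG on either strand, through which ATF6 and XBP1 act together with NF-Y, was present in 7 of 29 promoters of this list (24.1%) against 0.145% of all genes tested (14 of 9685). The stretches below hold it in capitals and belong to the list's largest falls with the element in the last 180 bases before the start (RefSeq, GRCh38.p14). CRELD2, an ER chaperone, lies at chr22:49918454-49918633 (+ strand), and CANX, calnexin, which holds new glycoproteins, at chr5:179698749-179698928 (+ strand).
CRELD2: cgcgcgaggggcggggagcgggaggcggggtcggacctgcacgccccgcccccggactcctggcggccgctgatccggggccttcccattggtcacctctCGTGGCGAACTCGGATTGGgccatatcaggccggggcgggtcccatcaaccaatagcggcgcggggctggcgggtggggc
CANX: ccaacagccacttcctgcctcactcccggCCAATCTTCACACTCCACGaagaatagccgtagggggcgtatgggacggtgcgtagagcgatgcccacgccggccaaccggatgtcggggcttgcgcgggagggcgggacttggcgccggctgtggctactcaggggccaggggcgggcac
In CRELD2 the element runs on the opposite strand. Both genes were called lower, with log2 fold changes of -1.19 and -0.94, and neither was called with the replicate block (edgeR adjusted p = 0.0595 and 0.0588) or without cycling replicate 3 (0.0512 and 0.0736). CANX was also not called without cycling replicate 2 (edgeR adjusted p = 0.0587), and without quiescent replicate 1 its log2 fold change was -0.60 and that of CRELD2 -0.83.

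Many genes of lipid synthesis were called lower. All 8 genes called among 14 of fatty acid synthesis were lower, where 14.6% of all genes were called lower, and the median was -1.51. SCD, stearoyl-CoA desaturase, had 1052, 1126 and 1184 CPM in cycling and 186, 433 and 358 CPM in quiescent libraries (-1.78 ± 0.22; edgeR adjusted p = 3.72e-04). ELOVL6 and ELOVL5, which lengthen fatty acids, gave -1.78 ± 0.19 and -1.83 ± 0.28. Each fit without 1 library also called 8 of the list lower, and the fit with the replicate block 7.

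The list of cholesterol genes, with a median of -0.94, had 14 of 26 called lower and 1 higher, where 14.6% and 7.09% of all genes were. INSIG1, which holds the sterol sensor SCAP in the ER, had 45.4, 48.4 and 61.6 CPM in cycling and 6.29, 15.1 and 15.1 CPM in quiescent libraries (-2.09 ± 0.31; edgeR adjusted p = 6.75e-04). EBP, a sterol isomerase, gave -2.05 ± 0.32. The 1 gene called higher was FDPS (0.27 ± 0.09). It was not called without quiescent replicate 1 (edgeR adjusted p = 0.145), without quiescent replicate 2 (0.0928), without cycling replicates 2 or 3 (0.148 and 0.106) or with the block (0.0854).

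The core of the sterol regulatory element, CACCCCA on either strand, bound by the SREBP factors, was present in 4 of 19 promoters of the cholesterol list (21.1%) against 6.02% of all genes tested, and CCAAT in 16 of 19 (84.2%). The stretches below are those of the list's largest falls that hold the core in the last 180 bases before the start, in capitals (RefSeq, GRCh38.p14). EBP lies at chrX:48521628-48521807 (+ strand) and SREBF2, which encodes an SREBP factor, at chr22:41832925-41833104 (+ strand).
EBP: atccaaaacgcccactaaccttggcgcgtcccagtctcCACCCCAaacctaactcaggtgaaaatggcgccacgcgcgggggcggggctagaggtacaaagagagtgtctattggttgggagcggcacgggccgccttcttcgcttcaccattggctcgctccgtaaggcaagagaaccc
SREBF2: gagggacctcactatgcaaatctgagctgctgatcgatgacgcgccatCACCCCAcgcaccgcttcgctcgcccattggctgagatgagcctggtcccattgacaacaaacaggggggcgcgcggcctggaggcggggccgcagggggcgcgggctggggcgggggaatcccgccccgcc
SREBF2 footprints changed by -0.998 on the log2 scale (edgeR adjusted p = 0.00352).

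Collagen and matrix genes are major products of fibroblasts, and in these the quiescent libraries differed widely from each other. Of 21 collagens tested, 1 was called, where 21.7% of all genes were. This was COL14A1, a collagen found on fibril surfaces, which rose from 20.3, 28.9 and 19.8 to 37.6, 99.9 and 137 CPM (1.98 ± 0.36, edgeR adjusted p = 0.00216). COL1A1 had 12723, 11644 and 12853 CPM in cycling and 3753, 8943 and 12016 CPM in quiescent libraries (-0.59 ± 0.27; edgeR adjusted p = 0.145), and without quiescent replicate 3 it was called (adjusted p = 0.0121). COL3A1 had 1643, 2261 and 2137 and 825, 2060.3 and 2821 CPM, with a log2 fold change of -0.08 that became 0.28 without quiescent replicate 1 (edgeR adjusted p = 0.891 and 0.209). FN1, fibronectin, had 7142, 9614 and 9369.5 CPM in cycling and 5203, 13783 and 17738 CPM in quiescent libraries (0.49 ± 0.30; edgeR adjusted p = 0.282) and was called without quiescent replicate 1 (adjusted p = 4.13e-04). In COL1A1, COL3A1 and FN1 quiescent replicate 1 was the lowest of the 6 libraries and the groups overlapped.

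Collagens as a group took 3.16, 3.34 and 3.46% of footprints in cycling libraries and 1.37, 2.89 and 3.91% in quiescent replicates 1, 2 and 3, and matrix glycoproteins and proteoglycans 2.13, 2.64 and 2.58% and 1.32, 3.18 and 4.02%. Of 35 matrix glycoproteins tested, 2 were called higher (FMOD and MGP) and 2 lower (SPARC and IGFBP7), where 7.09% and 14.6% of all genes were. Leaving out quiescent replicate 1 raised the higher calls of the matrix list to 16 and those of the collagens to 4, whereas leaving out any other of the 6 libraries left no higher call in the matrix list. Without quiescent replicate 3, 6 collagens and 4 matrix genes were called lower. No matrix gene was called lower without any 1 of the cycling libraries, without quiescent replicate 2 or with the block. Of the 8 genes with the largest shares of footprints in cycling cells, COL1A1, COL1A2, VIM, FN1, ACTB, PKM, ANXA5 and LGALS1, all 8 were also the largest in quiescent cells. Together they held 6.46% ± 0.149 (SD, n = 3) and 6.51% ± 1.23 (n = 3).

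Of 23 enzymes that modify collagen in the ER, 9 were called lower, where 14.6% of all genes were, and none higher, with a median of -0.72. COLGALT1, a collagen galactosyltransferase, had 120.0, 108 and 129 CPM in cycling and 21.1, 53.2 and 59.7 CPM in quiescent libraries (-1.42 ± 0.27; edgeR adjusted p = 0.00281), and CRTAP, of the prolyl 3-hydroxylase complex, 115, 118 and 126 and 24.7, 55.3 and 57.6 CPM (-1.39 ± 0.25). Lower calls were 5 without cycling replicate 3, 19 without quiescent replicate 3 and 4 with the replicate block.

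Secreted regulators that fell included DKK1 and SFRP1, inhibitors of WNT signals. DKK1 had 368, 255 and 225 CPM in cycling and 36.5, 91.5 and 61.6 CPM in quiescent libraries (-2.16 ± 0.27; edgeR adjusted p = 3.72e-04), and SFRP1 and the ligand WNT5B gave -1.42 ± 0.26 and -1.68 ± 0.32. Of 14 WNT genes 5 were called lower and 2 higher. The higher calls were 0 without cycling replicate 2 or 3, without quiescent replicate 2 or 3, or with the block, and the lower calls were 3 without cycling replicate 3, without quiescent replicate 2 or with the replicate block. FST, follistatin, which binds activins, went from 498, 538 and 494 to 53.1, 199 and 178 CPM (-1.83 ± 0.33). It was 1 of 7 lower calls among 26 genes of TGF-beta and activin signalling, where 14.6% of all genes were called lower. Those 7 became 4 without cycling replicate 1, cycling replicate 3 or quiescent replicate 2, 12 without quiescent replicate 3 and 3 with the block. IGFBP6, which binds IGF2, had 173, 154 and 183 CPM in cycling and 26.5, 40.1 and 56.3 CPM in quiescent libraries (-2.05 ± 0.24). IL6 was not called, at 4.24, 11.1 and 5.01 CPM in cycling and 3.83, 13.3 and 15.2 CPM in quiescent libraries (0.63 ± 0.49; edgeR adjusted p = 0.408), and its groups overlapped. C3, the central complement component, rose from 0.103, 0.432 and 0.213 to 1.09, 9.23 and 14.7 CPM (4.86 ± 0.99; adjusted p = 0.00389), its quiescent values differing more than 10-fold between replicates 1 and 3. TSLP, an epithelial-type cytokine that fibroblasts also make, gave 1.01 ± 0.19.

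B2M, the light chain of MHC class I, had 1683, 1986 and 1979 CPM in cycling and 396, 893 and 879.6 CPM in quiescent libraries (-1.38 ± 0.23; edgeR adjusted p = 0.00135), and TAP1, a peptide transporter of the ER membrane, gave -1.41 ± 0.29. Of the 17 MHC class I genes 4 were called lower, where 14.6% of all genes were. That count was 2 without cycling replicate 3 and 10 without quiescent replicate 3. THY1, a GPI-anchored surface marker of fibroblasts, was the 1 fibroblast marker of 12 called (-1.30 ± 0.25). Of 44 lysosomal genes 16 were called lower and 4 higher. CD63, a tetraspanin of late endosomes, had 963, 1015 and 1293 CPM in cycling and 196, 484 and 627 CPM in quiescent libraries (-1.32 ± 0.29), and the cathepsin genes CTSZ and CTSC gave -1.38 ± 0.28 and -1.31 ± 0.27. Among the 4 that rose, 2 other cathepsin genes, CTSK and CTSS, gave 1.21 ± 0.30 and 1.21 ± 0.35. The CTSK call was lost without cycling replicate 1 (edgeR adjusted p = 0.0526). CTSS was not called without cycling replicate 1 or 3 or quiescent replicate 2 or 3. ATP6V1A, a subunit of the proton pump, also rose, with 262, 279 and 247 CPM in cycling and 408, 429 and 383 CPM in quiescent libraries (0.63 ± 0.08; edgeR adjusted p = 3.92e-04). Lower calls of the lysosomal list were 7 without cycling replicate 3 and 16 without quiescent replicate 1, and higher calls were 2 without cycling replicate 1.

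The translation machinery changed little. Of 77 cytosolic ribosomal protein genes tested, 11 (where 14.6% of all genes tested were lower) were called lower and 1 higher, with a median footprint log2 fold change of -0.11 and a median RNA change of 0.09. RPL38, of the large subunit, had 646, 719 and 689 CPM in cycling and 515, 469.7 and 477 CPM in quiescent libraries (-0.49 ± 0.08; edgeR adjusted p = 0.00114), and was called in each fit that left out 1 library and with the block. RPS6, the S6 kinase substrate of the small subunit, went from 562, 521 and 518 to 389, 476 and 434 CPM (-0.30 ± 0.09; adjusted p = 0.0269), but was not called with the block (edgeR adjusted p = 0.0997), without quiescent replicate 1 (0.117), or without any 1 of the cycling libraries (0.0998, 0.0522 and 0.0656). Higher calls ranged from 0 to 4 over the fits without 1 library. The 11 lower calls were 6 without cycling replicate 1, 1 without cycling replicate 3, 3 without quiescent replicate 1, and 4 without quiescent replicate 2 or with the block. Ribosomal protein genes and EEF1A1 have many near-identical processed copies, and reads that map to several places are not in the counts (23.2% to 31.9% of the reads of these 6 libraries), so their values are uncertain.

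Ribosomal protein mRNAs are known to start with a C and a run of pyrimidines, the TOP motif through which mTORC1 controls their translation. In RefSeq, a C and at least 4 more pyrimidines stood at the start site of 40 of 61 ribosomal protein genes (65.6%) against 5.44% of all genes tested. The first 20 bases are shown for the list's 3 largest falls with such a start and for the elongation factor gene EEF1A1, with the leading pyrimidine run in capitals (GRCh38.p14). RPS13 starts at chr11:17077648-17077667 (- strand), RPL38 at chr17:74203678-74203697 (+ strand), RPS25 at chr11:119018324-119018343 (- strand) and EEF1A1 at chr6:73521013-73521032 (- strand).
RPS13: CCTTTCgttgcctgatcgcc
RPL38: CTTTTTCgtccttttccccg
RPS25: CTTTTTgtccgacatcttga
EEF1A1: CTTTTTCgcaacgggtttgc
RPS13 footprints gave -0.51 (edgeR adjusted p = 0.015) and RPS25 footprints -0.39 (adjusted p = 0.0277). RPS13 was not called without cycling replicate 1 or 3 (edgeR adjusted p = 0.0558 and 0.0531), and RPS25 not without cycling replicate 3 (0.172), quiescent replicate 1 (0.0772) or quiescent replicate 2 (0.055), or with the block (0.102). Genes of the list with this start had a median footprint log2 fold change of -0.10, a median RNA change of 0.07 and a median change of the ratio of footprints to RNA of -0.15 (n = 40). Those without it had -0.12, 0.09 and -0.18 (n = 21), which is close to the values of genes with it.

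EEF1A1, which brings aminoacyl-tRNA to the ribosome, had 406, 343 and 292 CPM in cycling and 247, 313 and 207 CPM in quiescent libraries (-0.44 ± 0.14; edgeR adjusted p = 0.0395), with groups that overlapped. The call was lost without cycling replicate 1 or 2 (edgeR adjusted p = 0.179 and 0.0819), without quiescent replicate 1 or 3 (0.0794 and 0.121), and with the replicate block (0.0681). EEF2, the translocase, was not called (0.28 ± 0.12; edgeR adjusted p = 0.112), but it was without quiescent replicate 1 (adjusted p = 0.0282). EIF4E, which binds the mRNA cap, fell from 34.05, 38.6 and 38.04 to 21.7, 22.8 and 19.4 CPM (-0.79 ± 0.16; edgeR adjusted p = 0.00359). It was among 2 lower and 2 higher calls in 44 initiation and elongation factors, where 14.6% and 7.09% of all genes were called. Both shares were thus smaller than among all genes, and no higher call was made without cycling replicate 1 or 3. Of 40 ribosome biogenesis genes, 2 were called lower, with FBL, the rRNA methyltransferase fibrillarin, at -0.66 ± 0.12, and 1 higher, NMD3. These too were smaller shares than among all genes. NMD3 was not called without cycling replicate 1 or 3 (edgeR adjusted p = 0.0987 and 0.112), without quiescent replicate 1 or 2 (0.111 and 0.0693) or with the block (0.0563). Lower calls were 1 without cycling replicate 1 or 3, without quiescent replicate 1 or with the block, and 3 without quiescent replicate 2.

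Among all genes tested, 14.6% were called lower and 7.09% higher. Mitochondrial ribosomal proteins, proteasome subunits and secreted cytokines and chemokines had smaller shares of lower calls than that. Of 74 mitochondrial ribosomal proteins 6 were called lower and none higher (-0.14 in the median), and of 30 proteasome subunits 3 lower (PSMA7, PSMC3 and PSMD11; -0.08). Lower calls of the mitochondrial ribosomal list were 2, 3 and 1 without cycling replicates 1, 2 and 3, and those of the proteasome list 0 without cycling replicate 2 or 3 or with the block, and 1 without quiescent replicate 1 or 2. Among 21 heat shock proteins DNAJB4 and CRYAB were called higher and HSPD1, the mitochondrial chaperonin, lower (-0.46 ± 0.10), and the higher calls were 0 without cycling replicate 2 or 3 or quiescent replicate 1 or 2. The list of metalloproteinases and their inhibitors also holds PLAUR, the urokinase receptor gene. It had 4 of 18 called lower (MMP1, TIMP4 and PLAUR among them), a larger share than among all genes. Its lower calls were 2 without cycling replicate 1 or 2, 1 without cycling replicate 3 or with the block, and 7 without quiescent replicate 3. Of 27 secreted cytokines and chemokines CXCL12, CSF1 and FGF2 were called lower and TSLP higher, and lower calls were 1 without quiescent replicate 1, any 1 cycling library or with the block, and 7 without quiescent replicate 3.

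Glycolysis genes were called in both directions, with a share of higher calls close to that of all genes. Of all genes tested, 14.6% were called lower and 7.09% higher. Among 24, 7 were called lower (the glucose carriers SLC2A1 and SLC2A3, the lactate carriers SLC16A1 and SLC16A3, and the enzymes TPI1, ENO1 and LDHA), 4 with the block, and 2 higher. SLC2A3 had 136, 134 and 112 CPM in cycling and 19.1, 54.2 and 47.9 CPM in quiescent libraries (-1.66 ± 0.28; edgeR adjusted p = 0.0013), and SLC16A3, which exports lactate, gave -1.73 ± 0.35. HK2, hexokinase 2, and PFKFB3, which activates phosphofructokinase, rose (0.86 ± 0.16 and 0.54 ± 0.10). Of 73 nuclear subunits of oxidative phosphorylation, 4 were called lower, COX4I1 among them (-0.57 ± 0.09), and 3 higher, with a median of -0.02. Both were smaller shares than among all genes. The lower calls were 2 without cycling replicate 2 or quiescent replicate 2 and 1 without cycling replicate 3, and the higher calls were 0 without cycling replicate 1, 1 without cycling replicate 2 and 2 without quiescent replicate 3.

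All 13 genes of the mitochondrial genome had negative values, with a median of -1.21, and 4 of them were called lower, where 14.6% of all genes were. They took 0.0931, 0.127 and 0.118% of footprints in cycling and 0.0192, 0.07404 and 0.0644% in quiescent libraries, with quiescent replicate 1 again the lowest. MT-CO2, a subunit of cytochrome oxidase, had 282, 383 and 245 CPM in cycling and 43.7, 188 and 119 CPM in quiescent libraries (-1.38 ± 0.39; edgeR adjusted p = 0.0215), a call lost without cycling replicate 2 (0.0805) and with the block (0.051). Lower calls in this list were 1 without cycling replicate 2, 2 without cycling replicate 3 or with the block, 5 without quiescent replicate 1 and 8 without quiescent replicate 3.

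Footprint changes went with RNA changes. Of the 2555 genes called in footprints, 2548 were also tested in RNA-seq of the same states (2 cycling and 3 quiescent libraries), where 1465 were called in the same direction and none in the opposite one. RNA-seq called 2068 of 13305 genes (15.5%), 10.4% lower, 5.19% higher and 5.49% with a change of at least 2-fold. Footprints and RNA were prepared from the same kinds of lysate, so these calls are not independent of each other. The mitosis list had a median of -1.08 in footprints and -1.19 in RNA, DNA replication -0.67 and -0.61, and p53 targets 0.44 and 0.35. Among lists with at least 12 members tested, the medians that lay furthest below their RNA value were those of fatty acid synthesis (-1.51 and -0.88), secreted cytokines and chemokines (-0.27 and 0.24), cholesterol synthesis (-0.94 and -0.50) and WNT ligands and inhibitors (-0.37 and 0.02).

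**Figure D5:**
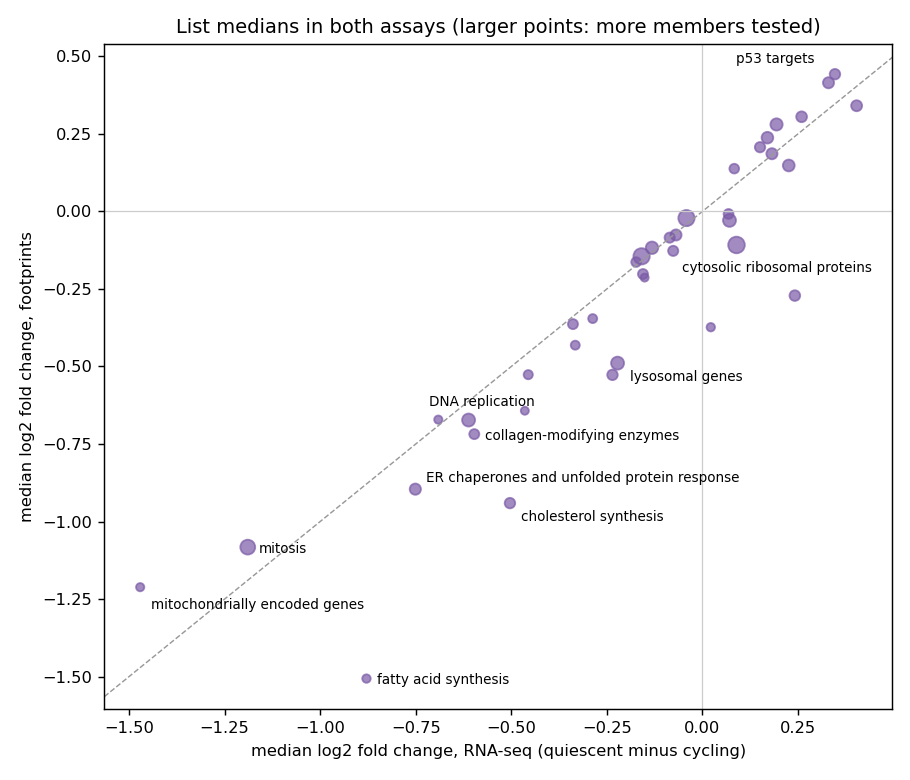
Median log2 fold change (quiescent minus cycling) of each list with at least 12 members tested, in RNA-seq (horizontal) and footprints (vertical); the dashed line marks equal change and larger points mean more members. Most lists lie near the line, and fatty acid synthesis (-1.51 in footprints, -0.88 in RNA) and cholesterol synthesis (-0.94 and -0.50) lie below it.

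Translational efficiency, the ratio of footprints to RNA, was tested for each gene in 1 model over both kinds of library, by the term that sets the state's change in footprints apart from that in RNA. Of 11727 genes, edgeR called 0 (0%) at an adjusted p under 0.05, 389 had an unadjusted p under 0.05, and DESeq2 called 6, of which QRICH1 was higher and EBPL, LMTK2, SLC35G1, SYNJ2BP and H2AC14 were lower. Counts were also simulated for this test, with 1 common spread for every gene and library. In these, 4-fold changes of efficiency were recovered in 100% of cases and 2-fold changes in 50% when higher and 42% when lower. Many 2-fold changes would thus be missed. The simulation held no outlying library such as quiescent replicate 1, so recovery in the real data may be lower. CRTAP, which fell in footprints, had an RNA log2 fold change of -0.12 and an efficiency change of -1.25 ± 0.30 (edgeR adjusted p = 0.732). RPL38 had 0.32 in RNA and -0.80 ± 0.20 in efficiency (adjusted p = 0.732), and EIF4E -0.10 and -0.68 ± 0.23 (adjusted p = 1.00). The ribosomal protein list had a median efficiency change of -0.18, with 14 of its 77 genes at an unadjusted p under 0.05, and the ER-made families one of -0.35, beside -0.03 for all genes.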

How the data were processed

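Ribo-seq and RNA-seq counts per gene, 1 file for each library, were deposited as STAR's gene counts, unnormalized and with a column for each strand. The authors used bcl2fastq, STAR 2.7.10b, hg38 and DESeq2 1.36.0, per the submitters' processing notes, which give them no role. Forward-strand counts were taken for Ribo-seq and reverse-strand counts for RNA-seq. The time of RNase I digestion differs between the series' design text and the labels' protocols, and is not used here. Of 60534 gene IDs shared by all 27 libraries, 60461 matched a symbol, and 19322 were protein coding by a match of symbols to RefSeq. Genes with low counts were removed with edgeR's filterByExpr.

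The footprint test was edgeR 4.0.16's robust quasi-likelihood test in R 4.3.3 with TMM scaling, over the 14 Ribo-seq libraries of all 5 states, which share 1 estimate of spread. RNA-seq was tested likewise over 13 libraries, and translational efficiency by an interaction term between state and kind of library over 27. P-values were adjusted by Benjamini-Hochberg over all genes tested, and a gene was called at an adjusted p under 0.05. Errors of log2 fold changes are standard errors (3 cycling and 3 quiescent libraries). The depth of 9874835 to 19996104 gene counts per Ribo-seq library limits precision for the lowest genes, and these intervals cover the spread between libraries only. Tested on simulated data, the footprint test recovered 100% of 4-fold changes, 88% of 2-fold rises and 80% of 2-fold falls among 11778 genes. The simulated data had 1 common spread for every gene and library and no outlying library, so these shares may be too high for the real data.

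Replicate numbers are shared between states. Same-numbered libraries deviated together (r across genes of 0.189, 0.289 and 0.324, all over 0.1), so a fit with the replicate number as a block was run over the quiescent and cycling libraries. Alternatives were RLE and upper-quartile scaling, DESeq2 1.42.0, no filter, other library sets, unstranded counts, every biotype and leaving out each library. Counts over families were added after seeing the data.

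The members and gene lists were chosen with earlier results of these data known. Named genes were the 14 largest rises and falls with groups that do not overlap and a mean of at least 10 CPM, up to 3 called members per list and direction, the 8 largest footprint shares and a fixed set of key genes. Other members of lists are named where they are the few that were called in a direction or carry a printed sequence, and were chosen after their values were seen. Promoter and start sequences are RefSeq's on GRCh38.p14, where 9685 of 11778 genes tested matched and 2883 had several starts, of which the first was used. A motif match is a description of letters, and not a site or a cause. Some genes of the lists are not reported here by name.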

Additional observations from a re-analysis of the deposited data

How the results depend on the processing

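The count of footprint calls, 2555, ranged from 1551 (without cycling replicate 3) to 2841 (without quiescent replicate 3) when 1 library was left out, and the replicate block gave 2146. Other settings gave 1877 with quiescent and cycling libraries alone and 3632 without the thapsigargin libraries. RNA-seq calls, 2068, ranged from 701 to 2245 on leaving out 1 library, and were 845 with quiescent and cycling libraries alone and 2401 with the block. For translational efficiency, edgeR called 0 genes, with 1 without the filter on low counts, 0 to 2 on leaving out 1 library and 0 with the block, and DESeq2 called 6. COL3A1, not called, reversed from -0.08 to 0.01 without cycling replicate 2 and 0.28 without quiescent replicate 1, and ranged down to -0.48 without quiescent replicate 3. The cause of these shifts was not tested. Of 187 genes named and called, 117 were called in every fit without 1 library and with the block, and 38 lost the call with the block. That fit also uses 6 libraries in place of 14. The same 6 without the block, a fit that the 117 do not take in, shared 1637 of the 2555 calls. With the block 1911 were shared. Leaving aside genes named only for their footprint share, 62 lost the call in the 6 libraries without the block and 37 with it. Upper-quartile scaling moved the median of all genes from 0.0153 to 0.0864 on the log2 scale. Leaving out cycling replicate 3 or quiescent replicate 1 moved many list counts.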
